A study of Mus musculus with 6 samples.

Results

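NF-kappaB is a family of dimeric transcription factors, and the genes described here encode its 5 subunits (Nfkb1, Nfkb2, Rel, Rela and Relb), 3 of its inhibitors (Nfkbia, Nfkbib and Nfkbiz) and the adaptor Myd88, which carries signals from Toll-like and interleukin-1 receptors to it. They were picked out of the table by gene symbol, and all 9 were among the 15388 genes of the deposited table. Their reads were compared between 2 fractions of hippocampal RNA from the same 3 mice. All of the mice were Cx3cr1-Cre/Ert2+; NuTRAP+, so the controls carried the same alleles and treatment as the samples they were compared with. Per the methods of the study, the Cre and the reporter were each present in 1 copy, tamoxifen was injected at about 3 months of age, and both sexes were used in the work. The Cx3cr1 promoter drives a Cre recombinase that tamoxifen activates, and recombination puts an EGFP-tagged ribosomal protein on the ribosomes of cells that have used this promoter, which in brain are chiefly microglia. Per the study, a small population of cells carries the tag even without tamoxifen. In translating ribosome affinity purification (TRAP), part of the cleared homogenate was saved as Input, and the ribosomes pulled down with an anti-GFP antibody gave the Positive fraction. Animals 201, 207 and 208 each gave 1 Input and 1 Positive library.

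In resting cells, NF-kappaB dimers are held in the cytoplasm by inhibitory IkappaB proteins. When a receptor is engaged, IkappaB kinase phosphorylates the inhibitor, which is then degraded, and the dimer enters the nucleus and binds kappaB sites. Rela (p65), Rel (c-Rel) and Relb carry activation domains, while Nfkb1 and Nfkb2 encode the precursors p105 and p100, which act as inhibitors until they are processed to p50 and p52. The route through Rela, Rel and p50 is called canonical, and the route through Relb and p52 is called non-canonical. Nfkbia encodes IkappaB alpha, which is itself a target of NF-kappaB, so that signaling restores its own brake. Nfkbib encodes IkappaB beta, and Nfkbiz encodes the nuclear protein IkappaB zeta, which works with p50 at a subset of target genes. In microglia, the brain's resident macrophages, this pathway is best known for inflammatory gene induction downstream of Toll-like receptors and Myd88.

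Several NF-kappaB genes are known to be NF-kappaB targets themselves, and 3 promoters that hold the kappaB consensus are shown for that reason. RefSeq on build GRCm38.p6 gave windows of 250 bases before the transcript start for 6 of the 9 genes, Nfkb2 having 3 starts and thus 8 windows in all. Nfkb1, Relb and Nfkbiz had no window. The kappaB consensus was searched on both strands and was present in 5 of the 8 windows and in 3 of the 6 genes (Rel, Nfkbia and Nfkb2). Over all promoters of the same length, 7.25% of 32851 windows and 8.23% of 27025 genes held it. The motif GAGGAAGT, bound by PU.1, a factor that specifies macrophages, was present in 1 of the 6 genes, Rel, and in 2.79% of all genes. A match is a description of the letters and not of binding. The sequences run 5′ to 3′ toward the start of the gene, and the capitals mark the kappaB matches.
Rel, chr11:23770970-23771219, minus strand: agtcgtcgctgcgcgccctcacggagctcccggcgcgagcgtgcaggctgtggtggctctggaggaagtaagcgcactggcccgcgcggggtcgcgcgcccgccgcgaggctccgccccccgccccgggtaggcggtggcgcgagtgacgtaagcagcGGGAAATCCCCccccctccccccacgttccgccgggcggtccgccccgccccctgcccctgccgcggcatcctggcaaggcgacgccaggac
Nfkbia, chr12:55492648-55492897, minus strand: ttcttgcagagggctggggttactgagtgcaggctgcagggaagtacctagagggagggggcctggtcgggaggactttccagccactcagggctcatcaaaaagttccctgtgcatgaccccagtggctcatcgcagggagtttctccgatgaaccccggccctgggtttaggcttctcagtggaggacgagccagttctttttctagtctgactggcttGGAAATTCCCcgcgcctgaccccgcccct
Nfkb2, its outermost start, chr19:46304487-46304736, plus strand: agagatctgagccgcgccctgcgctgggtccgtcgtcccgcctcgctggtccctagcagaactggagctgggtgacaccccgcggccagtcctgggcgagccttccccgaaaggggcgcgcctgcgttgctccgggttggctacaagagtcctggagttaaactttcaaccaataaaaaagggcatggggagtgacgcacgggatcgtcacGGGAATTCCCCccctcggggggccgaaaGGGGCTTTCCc
In Rel the match began 92 bases before the start, and an overlapping match on the opposite strand began 91 bases before it. In Nfkbia the match ran from 29 to 20 bases before the start. The Nfkb2 window held separate matches beginning 39 and 11 bases before the start, and its other starts held 1 match each.

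Each library held between 14879734 and 17757918 reads, with size factors between 0.9534 and 1.075. Values below are scaled reads, that is, estimated reads of a gene in a library divided by its size factor. The labelled cell type was checked against its markers, and all 10 microglial markers were higher in the Positive fraction, with a median log2 fold change of 4.63 and a summed level of 5381 to 5677 scaled reads in Input and 103400 to 152000 in Positive. Markers of other cells also moved. All 6 border macrophage markers were higher (median 4.08), as were all 8 endothelial markers (median 1.88, summed level 1711 to 2127 in Input and 4487 to 9057 in Positive). All 7 oligodendrocyte markers were lower (median -2.44), while 6 of 7 neuronal markers and 4 of 7 astrocyte markers did not pass the test (medians 0.08 and -0.29). Summed neuronal markers stood at 90690 to 103700 scaled reads in Input and 97380 to 114700 in Positive. Summed astrocyte markers stood at 59430 to 63820 in Input and 57640 to 68870 in Positive. The Positive fraction thus held many reads of markers of other cells, and their part in the values below was not tested. Of 7 monocyte and neutrophil markers only Ly6c2 was tested, and none of 6 lymphocyte markers was. Both fractions of an animal came from the same homogenate, and thus from the same cells. A difference between them is in how much of a transcript was pulled down, including any RNA carried over from untagged cells.

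The question was how far the mRNA of each NF-kappaB gene was enriched in the Positive fraction over Input. With edgeR's quasi-likelihood test and Benjamini-Hochberg adjustment over all 15344 genes tested, 7 of the 9 genes were higher in the Positive fraction, 1 (Nfkbiz) was lower and 1 (Nfkbib) did not pass the threshold of 0.05. Over all genes, 46% were called, 24% higher and 22% lower. With total-count scaling 41.6% of all calls were in the higher direction, against 52.2% with the scaling used here, and the median of all genes was then -0.09. The counts of NF-kappaB genes in each direction were the same under both. The median log2 fold change of the 9 genes was 1.14, beside -0.01 over all genes. Nfkb2, Myd88, Nfkb1, Rel and Rela rose over 2-fold (8.29% of all genes did), and none of the 9 passed the 5-fold limit that 3.75% of all genes passed. All 10 microglial markers passed it. In 8 genes all 3 Positive libraries lay above all 3 Input libraries, as for 28.9% of all genes, and in Nfkbiz all 3 lay below, as for 27.6%.

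**Figure D1:**
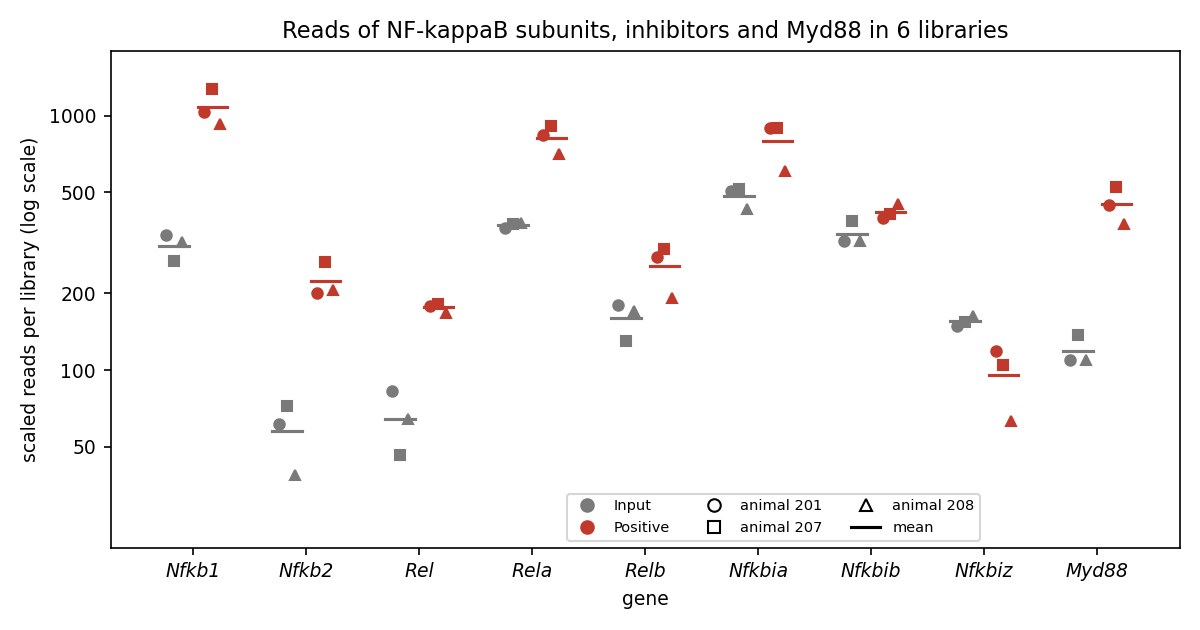
Scaled reads (log scale) of the 9 genes in each of the 6 libraries, Input in grey and Positive in red, with 1 marker shape per animal and a line at the mean of 3 libraries. The fractions do not overlap for any gene, and the gap is wide for Nfkb1, Nfkb2, Rel, Rela and Myd88, narrow for Nfkbib, where Input reached 386.6 and Positive began at 395.2, and turned around for Nfkbiz.

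Of the subunits, the precursor genes were the most enriched by fitted value. In animal 207, however, the log2 ratio of Rel (1.95) was above that of Nfkb2 (1.87). Nfkb1 (ENSMUSG00000028163, mm10 chr3:135584655-135691547, minus strand) encodes p105 and p50. It had 339.7, 267.8 and 317.9 scaled reads in the Input of animals 201, 207 and 208, and 1037, 1277 and 924.8 in their Positive libraries. Every Positive library was well above every Input library. The log2 fold change was 1.81 ± 0.13 (SE, n = 3 per fraction), a fold of 3.51, with an adjusted p of 1.86e-07 by edgeR. A same-strand gene model, Gm43430, overlaps Nfkb1, so some reads could have been split between them.

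Nfkb2 (ENSMUSG00000025225, chr19:46304737-46312090, plus strand) encodes p100 and p52 of the non-canonical route. It had 61.2, 72.05 and 38.81 scaled reads in Input and 201.7, 265.6 and 206.7 in Positive. The fractions were far apart although its Input level was the lowest of the 9 genes in animal 208. Nfkb2 rose by 1.96 ± 0.22 (SE) on the log2 scale, a fold of 3.89 (edgeR adjusted p = 1.19e-05).

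Rel (ENSMUSG00000020275, chr11:23736847-23770970, minus strand) encodes c-Rel, a subunit known mainly from immune cells. Its Input values of 82.95, 46.51 and 63.98 scaled reads spread more than its Positive values of 179.2, 182.3 and 167.4. The Positive libraries lay close together and all above Input. Rel rose by 1.45 ± 0.21 (SE) on the log2 scale, a fold of 2.74 (edgeR adjusted p = 9.31e-05).

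Rela (ENSMUSG00000024927, chr19:5637483-5648130, plus strand) encodes p65, the activating partner in the most common dimer and a subunit made in most cell types. It had 363.4, 375.4 and 380.0 scaled reads in Input and 840.2, 913.3 and 704.8 in Positive. The Input libraries were nearly equal, and each Positive library was higher. Its log2 fold change was 1.14 ± 0.11 (SE), a fold of 2.2 (edgeR adjusted p = 2.88e-06).

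Relb (ENSMUSG00000002983, chr7:19606217-19629438, minus strand), the activating subunit of the non-canonical route, was the least enriched subunit. It had 179.9, 129.7 and 170.7 scaled reads in Input and 278.5, 298.9 and 192.1 in Positive. The fractions did not overlap, but the Positive library of animal 208 was only just above the highest Input library. The log2 fold change was 0.68 ± 0.19 (SE), a fold of 1.61 (edgeR adjusted p = 0.00977). The call rested on the Input library of animal 207, the lowest of its fraction, without which the log2 fold change was 0.55 with an adjusted p of 0.0529.

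Because the subunits pair with each other, their relative amounts were described as shares of the summed subunit level, in scaled reads per kilobase of annotated exon. Nfkb1 made up 12.2% ± 0.96 (SD, n = 3) of the subunits in Input and 18.1% ± 0.81 in Positive, and Nfkb2 made up 6.01% ± 1.93 and 9.93% ± 0.98. Relb went the other way, from 19.6% ± 2.53 to 13.2% ± 1.39. For these 3 shares the fractions did not overlap, and an exact two-sided permutation test gave p = 0.1, the smallest that 3 libraries against 3 allow. That test did not use the pairing of libraries by animal. Rela was the most abundant subunit mRNA per kilobase in both fractions, with 58.1% ± 3.39 in Input and 54.0% ± 1.00 in Positive, and Rel the least, with 4.1% ± 1.00 and 4.82% ± 0.48. For both of these the fractions overlapped (exact permutation p = 0.2 and 0.4).

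The levels of the shares depended on the length used, because Nfkb1 has a long set of annotated exons. With the longest coding transcript of each gene, an alternative added after the data had been seen, Nfkb1 rose from 24.2% to 34.4%, Nfkb2 from 4.88% to 7.69% and Relb fell from 23.4% to 15.1%. The directions were the same with both lengths.

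**Figure D2:**
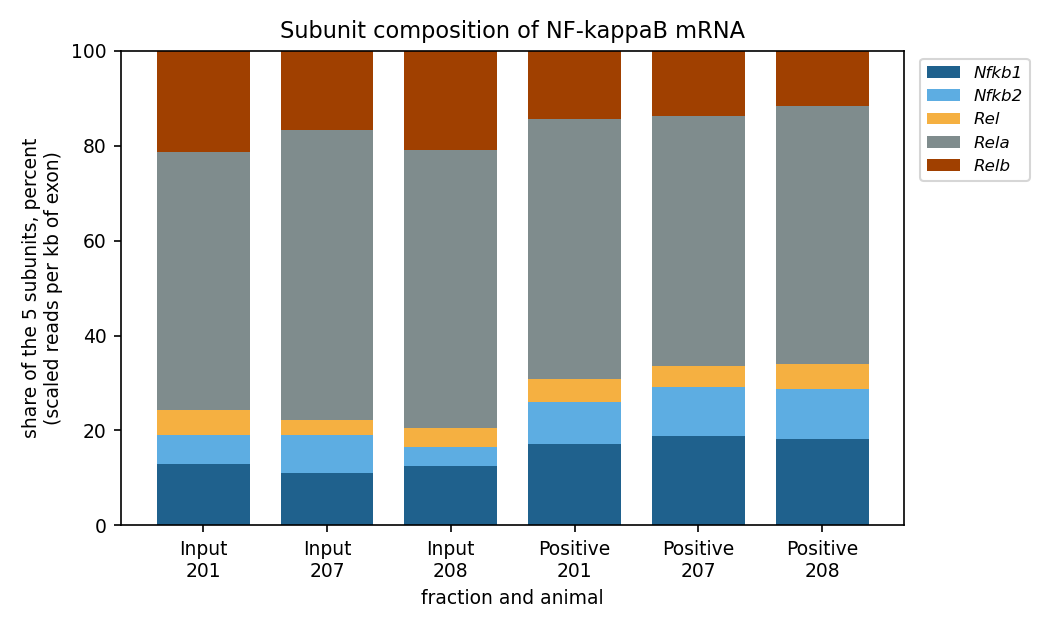
Share of each of the 5 subunits (percent, from scaled reads per kilobase of exon) in the 3 Input and 3 Positive libraries, by animal. The Nfkb2 band is between 4.01% and 7.87% in Input and between 8.81% and 10.7% in Positive, and the Relb band is between 16.7% and 21.3% in Input and between 11.7% and 14.4% in Positive.

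Subunits were also compared in pairs within animals. The log2 ratio of Positive to Input was higher for Nfkb1 than for Relb by 1.13 ± 0.21 (SD, n = 3 animals), with values of 0.98, 1.05 and 1.37. Nfkb1 was above its partner Rela by 0.67 ± 0.29 (SD), and Nfkb2 was above its partner Relb by 1.32 ± 0.80 (SD). The sign was the same in all 3 animals for each of these pairs. These differences are descriptions and were not tested.

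The 3 inhibitors differed in direction. Nfkbia (ENSMUSG00000021025, chr12:55489410-55492647, minus strand) had 503.8, 513.3 and 429.4 scaled reads in Input and 890.5, 898.3 and 604.9 in Positive. All Positive libraries were above Input, with animal 208 low in both fractions. Nfkbia rose by 0.73 ± 0.14 (SE) on the log2 scale, a fold of 1.66 (edgeR adjusted p = 0.00116).

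Nfkbib (ENSMUSG00000030595, chr7:28758251-28767512, minus strand) had 320.4, 386.6 and 322.0 scaled reads in Input and 395.2, 410.6 and 447.6 in Positive. The fractions were separated by only a small gap. The log2 fold change of 0.28 ± 0.12 (SE) did not pass the threshold (edgeR adjusted p = 0.0677). It passed only when the Input library of animal 207, the highest of its fraction, was left out (0.38, adjusted p = 0.0425).

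Nfkbiz (ENSMUSG00000035356, chr16:55811375-55838899, minus strand) was the only one of the 9 genes that fell. It had 148.7, 154.0 and 162.9 scaled reads in Input and 119.0, 104.3 and 63.26 in Positive. The Input values were tight, and all Positive values were lower, most so in animal 208. The log2 fold change was -0.70 ± 0.21 (SE), with the Positive mean at 61.8% of the Input mean (edgeR adjusted p = 0.0181). When the Input library of animal 208 was left out the value was -0.66 with an adjusted p of 0.06, and when its Positive library was left out it was -0.47 with an adjusted p of 0.0328. Of the inhibitors, Nfkbia and Nfkbiz stand on the list of microglial genes from cell sorting that the study took from published data, as does Rel.

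Within animals, the log2 ratio of Nfkbia was above that of Nfkbiz by 1.45 ± 0.36 (SD, n = 3), with values of 1.14, 1.36 and 1.84. Per kilobase of exon, Nfkbiz stood at 0.104 ± 0.015 (SD) of Nfkbia in Input and at 0.0379 ± 0.0047 in Positive. Nfkbia stood at 2.47 ± 0.27 times Rela in Input and at 1.85 ± 0.19 times in Positive. The fractions did not overlap in either ratio (exact two-sided unpaired permutation p = 0.1, the smallest that 3 against 3 allow). Summed over the 3 inhibitors and the 5 subunits, the ratio per kilobase of exon was 2.34 ± 0.27 (SD) in Input and 1.43 ± 0.08 in Positive, again with no overlap, though its level shares the dependence on the length taken for Nfkb1. The sums leave out other IkappaB genes such as Nfkbie, and count Nfkb1 and Nfkb2 only as subunits although their precursors also inhibit. They also count Nfkbiz as an inhibitor, although its nuclear protein works with p50 at a subset of target genes.

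Myd88 (ENSMUSG00000032508, chr9:119335934-119341411, minus strand) had 109.7, 137.0 and 109.8 scaled reads in Input and 445.2, 526.7 and 376.0 in Positive. The lowest Positive library was more than 2-fold above the highest Input library. The log2 fold change was 1.91 ± 0.16 (SE), a fold of 3.76 (edgeR adjusted p = 6.71e-07). The ratio was similar in the 3 animals, at 2.01, 1.94 and 1.77 on the log2 scale. Slc22a14 overlaps Myd88 on the same strand, so some reads could have been split between them.

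By fold change the order was Nfkb2, Myd88, Nfkb1, Rel, Rela, Nfkbia, Relb, Nfkbib and Nfkbiz. Most neighbours in it did not differ beyond the spread between animals. Nfkb2 was above Myd88 in 1 of 3 animals, by 0.08 ± 0.48 (SD of log2 ratios) on average, and Myd88 was above Nfkb1 in 2 of 3, by 0.11 ± 0.37. The first 3 places were thus not separated. Nfkb1 was above Rel in all 3 animals (0.32 ± 0.17), Rela above Nfkbia in all 3 (0.42 ± 0.05), and Nfkbib above Nfkbiz in all 3 (1.03 ± 0.69). Rel and Rela (0.35 ± 0.40), Nfkbia and Relb (0.04 ± 0.38), and Relb and Nfkbib (0.38 ± 0.71) kept their order in 2 of 3 animals each.

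Animals differed in the size of the enrichment. The median log2 ratio of the 9 genes was 1.1 in animal 201, 1.28 in animal 207 and 0.89 in animal 208, and 6 of the 9 genes had their lowest ratio in animal 208. Microglial markers had medians of 4.59, 4.88 and 4.33 in the same animals, and endothelial markers had medians of 2.2, 2.23 and 1.09. Not all of the 9 genes followed this order. Nfkb2 and Nfkbib had their highest ratios in animal 208 (2.38 and 0.47). Rel had its lowest ratio in animal 201 (1.10), and Myd88, Nfkbia and Nfkbiz had their highest there. Endothelial markers thus moved with the fraction and with the animal, and their part in the NF-kappaB values was not tested.

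**Figure D3:**
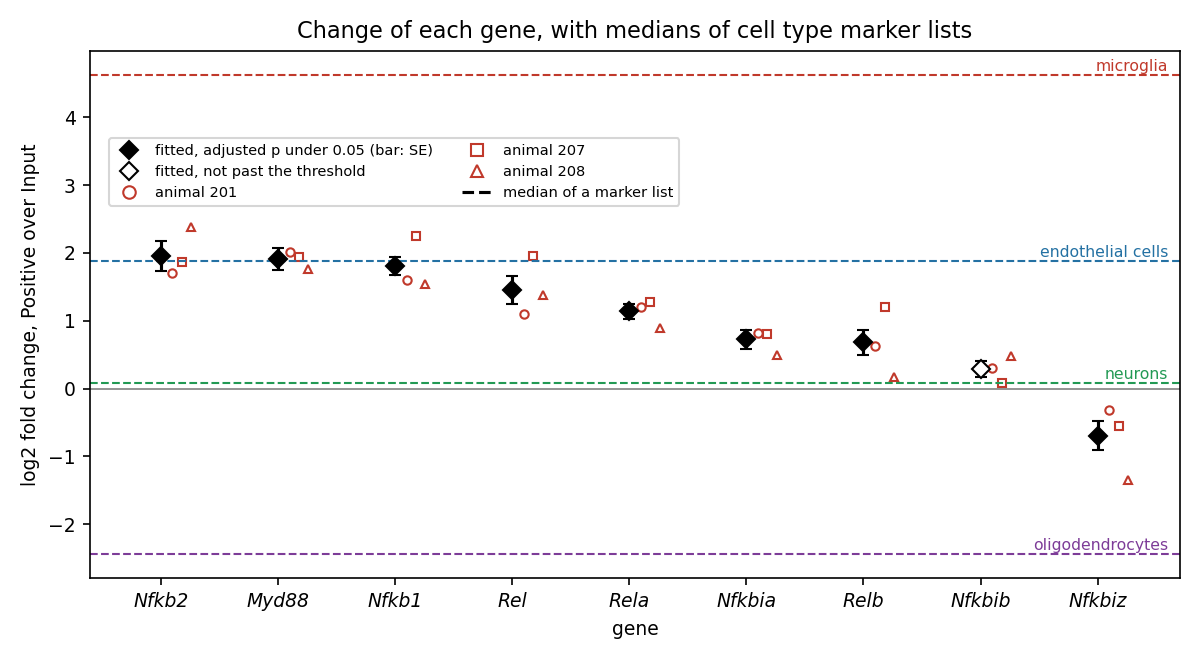
Log2 fold change of Positive over Input for each gene (diamonds, fitted value with SE) and for each animal (open red symbols), with dashed lines at the median of marker lists. All 9 genes lie far below the microglial median of 4.63, Nfkb2, Myd88 and Nfkb1 lie near the endothelial median of 1.88, and Nfkbiz lies between the neuronal median of 0.08 and the oligodendrocyte median of -2.44.

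The genes with the most similar values were found by the root mean square distance of centred log2(scaled reads + 1) over the 6 libraries. For Myd88 they were Ostf1 and Pmp22 (distances 0.062 and 0.068). For Rel they were Abcb4 and Ripk1 (0.080 and 0.10), the latter a kinase of the TNF receptor branch of the same pathway. For Rela they were Ddx21 and Myc (0.038 and 0.050), for Nfkbia Bag3 and 2810474O19Rik (0.048 and 0.053), and for Nfkbib Pspc1 and Sssca1 (0.040 and 0.048). Nfkb1 was closest to Gm21970 and Nagpa (0.055 and 0.075), Relb to Hbp1 and Fam3a (0.068 and 0.083), and Nfkbiz to Morn2 and 5031434O11Rik (0.071 and 0.074). Nfkb2 had no gene as near among those searched, the closest being Lacc1 and Col15a1 (0.17 and 0.18). Its Input reads were few and uneven (61.2, 72.05 and 38.81), and their part in these distances was not tested.

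The genes around these 9 in the pathway were described from 7 lists. Of 87 genes listed, 69 were tested, of which 39 were higher, 6 were lower and 24 did not pass, with a median log2 fold change of 0.55 beside -0.01 over all genes. In all, 17 of the 69 were over 5-fold higher. The lists differed widely in their medians.

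The receptors at the top of the pathway had the highest median. Of 16 receptors tested, 14 were higher, 1 was lower and 1 did not pass, with a median log2 fold change of 3.87, and 11 were over 5-fold higher. Tlr13, Tlr7 and Tlr9, endosomal Toll-like receptors for nucleic acids that signal through Myd88, rose by 4.97, 4.47 and 4.30. Other receptors, named after their values were seen, rose as much or nearly so. Tlr6 and Tlr5, with means under 100 scaled reads, rose by 5.4 and 4.445. Tlr2, Tnfrsf1b and Tlr4 rose by 4.28, 3.96 and 3.78. Tlr3, a receptor for double-stranded RNA that uses the adaptor TRIF instead of Myd88, rose by 0.95. Ltbr, the lymphotoxin beta receptor of the non-canonical route, rose by 1.39. The interleukin-1 receptor chain Il1rap fell by 0.32, from a mean of 761.3 to 612.4 scaled reads, a call that was lost when either of 2 Input libraries or 1 Positive library was left out, and Il1r1 did not pass the test (-0.05, edgeR adjusted p = 0.807). Cd40, Il18r1, Tlr8 and Tnfrsf13c were not analysed here.

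Between receptors and kinases, the genes listed for the relay around Myd88 had a median near 0. Of 14 genes listed for the relay from Myd88 to Tak1, 5 were higher and 9 did not pass, with a median of 0.12 (0.04 with total-count scaling). By log2 fold change they were Irak4 (2.42), Irak3 (1.79), Tirap (1.22), Irak2 (1.04) and Tab2 (0.54), of which Irak4, Irak3 and Tirap had means under 100 scaled reads and were named after their values were seen. Irak4 is the kinase that binds Myd88 directly, and it rose from a mean of 31.02 to 166.7 scaled reads. Irak1 did not pass (-0.009, edgeR adjusted p = 0.947), and neither did Traf6, a ubiquitin ligase later in the chain (-0.22, edgeR adjusted p = 0.187).

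In the TNF receptor and TRIF branch, 6 of 12 genes were higher and 1 was lower, with a median of 0.50. Birc3 (cIAP2), a ubiquitin ligase, rose by 2.49, and the kinase Ripk1 rose by 1.48, from a mean of 114.9 to 319.8 scaled reads. Ticam1, which encodes TRIF, rose by 0.84 and Traf2 by 0.72. Ticam2 (3.46) and Traf5 (2.01) rose as well, each with a mean under 100 scaled reads, and were named after their values were seen. Traf3, which holds the non-canonical route in check, fell by 0.55, from 1533 to 1048 scaled reads (edgeR adjusted p = 0.000393), and was lower in all 3 animals.

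The IkappaB kinases and their partners moved in both directions. Of 8 tested, 3 were higher, 3 were lower and 2 did not pass. Their median of 0.07 was close to 0 and its sign was not stable, being 0.16 without the Positive library of animal 201, 0.11 and 0.03 without the Input libraries of animals 208 and 201, -0.03 when the Positive library of animal 207 was dropped, and -0.01 with total-count scaling. Map3k14 (NIK), the kinase that starts the non-canonical route, rose by 0.85 and Ikbkb, the main kinase of the canonical route, by 0.39. Chuk, the IkappaB kinase alpha used by the non-canonical route, fell by 0.46, from a mean of 639 to 464.9 scaled reads. Of the TBK1 group, Tbk1 rose by 0.39, while its adaptors Tbkbp1 and Azi2 fell by 0.40 and 0.29, the call of Azi2 being lost without the Input library of animal 208. The regulatory subunit Ikbkg did not pass (0.21, edgeR adjusted p = 0.0712).

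Further brakes moved in both directions. Of 8 tested, 4 were higher, 1 was lower and 3 did not pass, with a median of 0.41. Tnfaip3 (A20), a deubiquitinase that is also a known NF-kappaB target, rose by 0.89, from a mean of 148.8 to 276.1 scaled reads, and its binding partner Tnip1 rose by 0.55. Otulin and Tax1bp1 rose by 0.51 and 0.49. Otud7b fell by 0.26, but its call was lost without any of 3 single libraries and with limma. Of the remaining IkappaB genes, Nfkbie (IkappaB epsilon) rose by 1.61 ± 0.21 (SE), from a mean of 49.69 to 151.8 scaled reads, more than Nfkbia or Nfkbib by fitted value. Nfkbid did not pass (-0.40, edgeR adjusted p = 0.208), and Bcl3 was not analysed here.

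Of 20 listed NF-kappaB target genes, 9 were tested. Ccl2, Ccl3, Ccl4, Ccl5, Cxcl1, Cxcl10, Cxcl2, Il1b, Il6, Nos2 and Tnf were not analysed here, so the list holds few of the inflammatory cytokines and chemokines. Of the 9, 6 were higher and 3 did not pass, with a median of 1.42. The median was 0.58 when only genes with at least 100 scaled reads were tested. The largest rises were of Il1a (3.3) and Ccrl2 (2.84), both with few reads, tested only through their Positive reads and named after their values were seen. Their means went from 5.62 to 56.77 and from 4.71 to 34.09 scaled reads. Icam1, an adhesion molecule, rose by 2.77, from a mean of 67.02 to 458.2 scaled reads, and the transcription factor Irf1 rose by 1.42. Zfp36, which encodes an RNA-binding protein that destabilizes cytokine mRNA, rose by 1.57. Vcam1, which endothelial cells also express, rose by 0.58 but was lower in the Positive library than in the Input of animal 208, and its call was lost without any of 4 single libraries and with limma. Ptgs2, Sod2 and Gadd45b had values of 0.02, -0.01 and -0.11 and did not pass.

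**Figure D4:**
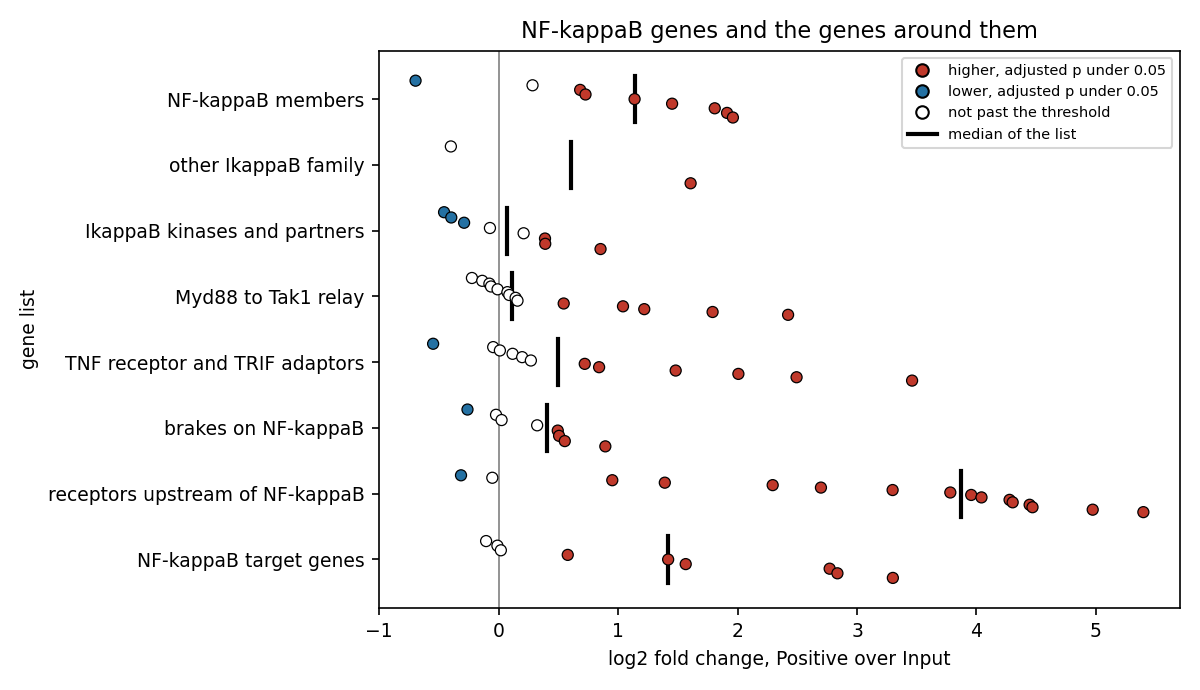
Log2 fold change of Positive over Input for each tested gene of the 9 NF-kappaB genes and of the 7 pathway lists, red where higher, blue where lower and white where the threshold was not passed, with a bar at the median of each list. The receptors have a median of 3.87, the 9 NF-kappaB genes one of 1.14, and the kinases and the relay from Myd88 to Tak1 sit around 0.07 and 0.12. Several receptors were tested only because their Positive reads were high.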

How the data were processed

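RNA from Input and Positive fractions of 3 mice was analysed (6 directional, poly(A)-selected libraries). The authors trimmed reads, aligned them with strand to mm10 in Strand NGS and deposited expected counts, that is, estimated counts per Ensembl gene that need not be whole (17.3% to 23.1% of values per library were whole). How mates of a pair were counted is not given in the sources used here. The authors also deposited log2 values, scaled by DESeq and centred on the Input median of each gene. Their table held genes that reached 20 reads throughout at least 1 fraction, and less abundant genes were not analysed here.

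Expected counts were rounded, scaled by RLE and tested in edgeR 4.0.16 (R 4.3.3) by quasi-likelihood, unpaired as in the study, on the 15344 genes whose scaled reads exceeded 20 throughout at least 1 fraction (44 were removed). P-values were adjusted by Benjamini-Hochberg, and 0.05 was the threshold. Log2 ratios per animal used a pseudocount of 1. Alternatives used limma 3.58.1, DESeq2 1.42.0, other scalings and filters, a replicate block, and leaving out each library. Levels between genes were compared per kilobase of the union of annotated exons. The 9 genes and the lists were chosen with earlier results of these data known. Every gene called against the median of its list was named, and with it the 3 largest and 3 smallest changes among called genes that averaged at least 100 scaled reads. Other list genes were named after their values were seen. The same animal gave both fractions, so animal numbers pair the libraries. Deviations from the fraction means correlated by 0.194, 0.058 and 0.12 in animals 201, 207 and 208. Each library came from 1 animal and reads carried no molecular identifiers.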

Additional observations from a re-analysis of the deposited data

How the results depend on the processing

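Each of 14 alternatives called 7 of the 9 NF-kappaB genes higher, though without the Input library of animal 207 Nfkbib was among them and Relb was not, and no value of the 9 genes changed direction. Leaving out each library gave 0 to 1 genes as lower, 0 being without the Input library of animal 208. Between 5541 and 7259 genes were called over the table without 1 library, beside 7054 with all. The replicate block, which pairs libraries of an animal, called 7567 genes, kept all calls of the 9 genes, and gave Nfkbib an adjusted p of 0.0577. DESeq2 called 6686 genes, and limma on the deposited log2 values 6343. Over the alternatives, the log2 fold change of Relb was 0.55 to 0.85 with adjusted p from 0.000559 to 0.0529, that of Nfkbiz was -0.88 to -0.47 (0.00793 to 0.06) and that of Nfkbib was 0.21 to 0.38 (0.0425 to 0.2). The number of pathway genes called lower, 6 with all libraries, was 3 to 6 when 1 library was left out, 4, 3 and 5 without the Input libraries of animals 207 and 208 and the Positive library of animal 207. Without 1 library, the difference between fractions in the share of a subunit (Positive minus Input, percentage points) was 5.33 to 6.28 for Nfkb1, 2.92 to 4.85 for Nfkb2, 0.23 to 1.23 for Rel, -5.94 to -2.58 for Rela and -7.83 to -5.53 for Relb. Of 446 values of 32 of the pathway genes named above under these settings, 13 lost their call and 0 changed direction. The exact two-sided permutation test took the libraries as unpaired, and with 3 libraries against 3 it cannot go below 0.1.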
